A study of Homo sapiens with 8 samples.

Results

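BPH-1 is an established line of human prostate epithelium that was derived from benign prostatic hyperplasia. Its response to RWF, a root bark extract of the shrub Rauwolfia vomitoria, was read on Affymetrix Human Transcriptome Array 2.0 chips. The members described here are the 22465 genes that have a transcript cluster (a group of probes read as 1 locus) annotated to a single gene symbol, out of 67528 clusters in the table, with the brightest cluster standing for a gene that has several. They were followed on the 4 BPH-1 arrays of a series of 8 arrays, of which 2 were from cells given RWF at 250 μg/ml for 24 h and 2 from cells given vehicle. All BPH-1 cells grew as monolayers in RPMI medium with fetal bovine serum and antibiotics, and the extract had been dissolved in DMSO and diluted in PBS, while the labels call the control only vehicle. The other 4 arrays hold the prostate stromal myofibroblast line WPMY-1, grown in DMEM, after RWF and after vehicle in the same way, and serve here only for the shared estimate of the spread and for the comparison of the lines. One line at 1 dose and 1 time was profiled, so the values describe this line and not prostate epithelium in general. Values are log2 expression after RMA, so a difference of 1 is a doubling, and nothing in the labels ties the 2 arrays of a group to separate cultures. The p-values therefore rest on the spread between arrays alone, and that spread may be technical.

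Prostate epithelium is built of basal cells, which carry KRT5 and KRT14, and luminal cells, which carry KRT8 and KRT18 and depend on androgen. The basal cells sit on a laminin matrix, make chemokines and proteases that act on the stroma, and express detoxifying enzymes and interferon-inducible defence genes. Programmes that such cells switch with their surroundings include the NRF2 response to electrophiles, the aryl hydrocarbon receptor (AHR) response to plant and combustion products, sterol synthesis under SREBP2 and the FOXO response to poor nutrition.

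The epithelial label was borne out by the markers. KRT5 was at 10.92 and 10.97 in vehicle-treated BPH-1 cells and at 4.96 and 5.19 in vehicle-treated WPMY-1 cells, a difference of 5.87 (limma, adjusted p = 1.58e-07). The adhesion proteins of epithelial sheets CDH1 and EPCAM differed by 5.19 and 4.84 in the same direction (adjusted p = 2.50e-08 each). Of 21 measured epithelial markers 20 were higher in BPH-1 at an adjusted p under 0.05, and of 21 stromal and smooth muscle markers 18 were lower in BPH-1. Over all 22465 members, 2846 were higher and 2813 lower in vehicle-treated BPH-1 cells at that threshold. Markers of luminal, endothelial, leukocyte and neuroendocrine cells had no member past the 1.3-fold rule below, and their list medians lay between 4.18 and 5.13 on every BPH-1 array, against a median of 5.76 over all members in vehicle-treated cells.

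The 4 BPH-1 arrays were nearly alike across clusters, with a Pearson correlation of 0.996 between the RWF arrays, 0.997 between the vehicle arrays and 0.995 to 0.996 between an RWF and a vehicle array. The median difference over all members was -0.00336. In limma over all clusters, 3 members rose and 2 fell at an adjusted p under 0.05, which is 0.0134% and 0.0089% of the 22465 members (0.0223% together). At an unadjusted p under 0.05, 794 members were higher (3.53%) and 631 lower (2.81%). A second count, with no test, takes members whose group means differ by at least 1.3-fold, the study's cutoff, and whose RWF arrays both lie on the same side of both vehicle arrays. By this 1.3-fold rule 243 members were higher (1.08%) and 114 lower (0.507%), of which 214 and 88 were protein-coding. Of these 357 genes, 26 stayed below 4.57 in both groups, the level under which 95% of 364 olfactory receptor genes lay, so their values are near the background of the array. Where list members are counted by position alone, 16.7% of all members had both RWF arrays above both vehicle arrays and 18.6% had both below.

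Of the 5 called genes, FBXO32 had the largest difference. FBXO32 encodes atrogin-1, the substrate adaptor of a ubiquitin ligase that is known from muscle wasting and is a FOXO target. It was at 6.76 and 6.96 in RWF-treated cells and at 5.57 and 5.61 in vehicle-treated cells, so both RWF arrays stood well clear of both vehicle arrays. It rose by 1.27 (2.40-fold, SE 0.14, n = 2 each, limma adjusted p = 0.0399). TMEM156, a little-studied transmembrane protein, was at 6.54 and 6.73 with RWF and 5.42 and 5.59 with vehicle and rose by 1.13 (SE 0.12, adjusted p = 0.0390). GREM1, a secreted antagonist of BMP ligands, was at 6.32 and 6.21 with RWF against 5.43 and 5.35 with vehicle and rose by 0.87 (SE 0.092, adjusted p = 0.0388). In all 3 the gap between the groups was several times the gap between arrays of a group.

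GABBR2 and POTEF were the 2 members that fell. GABBR2, a subunit of the receptor for the transmitter GABA, was at 6.23 and 5.96 in RWF-treated cells and 7.14 and 7.07 in vehicle-treated cells and fell by 1.01 on the log2 scale (SE 0.11, limma adjusted p = 0.0388). The other 32 measured genes of GABA and glutamate receptors had no member past the 1.3-fold rule. POTEF, of a primate-specific ankyrin repeat family expressed in prostate, was at 4.74 and 4.68 with RWF and 5.41 and 5.36 with vehicle and fell by 0.67 (SE 0.074, adjusted p = 0.0390). Its close paralogs POTEE, POTEI and POTEJ had -0.66, -0.64 and -0.61, while POTEG, POTEH, POTEM, POTEC and POTEA lay between -0.18 and 0.0084. The first 4 are near-identical in sequence and may share probes, so which of them moved is uncertain. Neither fall was called in a fit of the BPH-1 arrays alone (adjusted p = 0.0738 for GABBR2 and 0.0912 for POTEF), nor was the rise of GREM1 (0.0562), and after quantile normalization none of the 5 was (0.0749 each). None of the 5 calls held when any BPH-1 array was left out, where the adjusted p reached 0.484 to 0.490 without vehicle replicate 1, although the differences stayed between 1.17 and 1.36 for FBXO32, 1.03 and 1.22 for TMEM156, 0.82 and 0.92 for GREM1, -1.15 and -0.87 for GABBR2 and -0.71 and -0.64 for POTEF. When the members were fitted without the other clusters, 39 members were called, 27 higher and 12 lower (0.174% of all), the 5 among them.

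**Figure D1:**
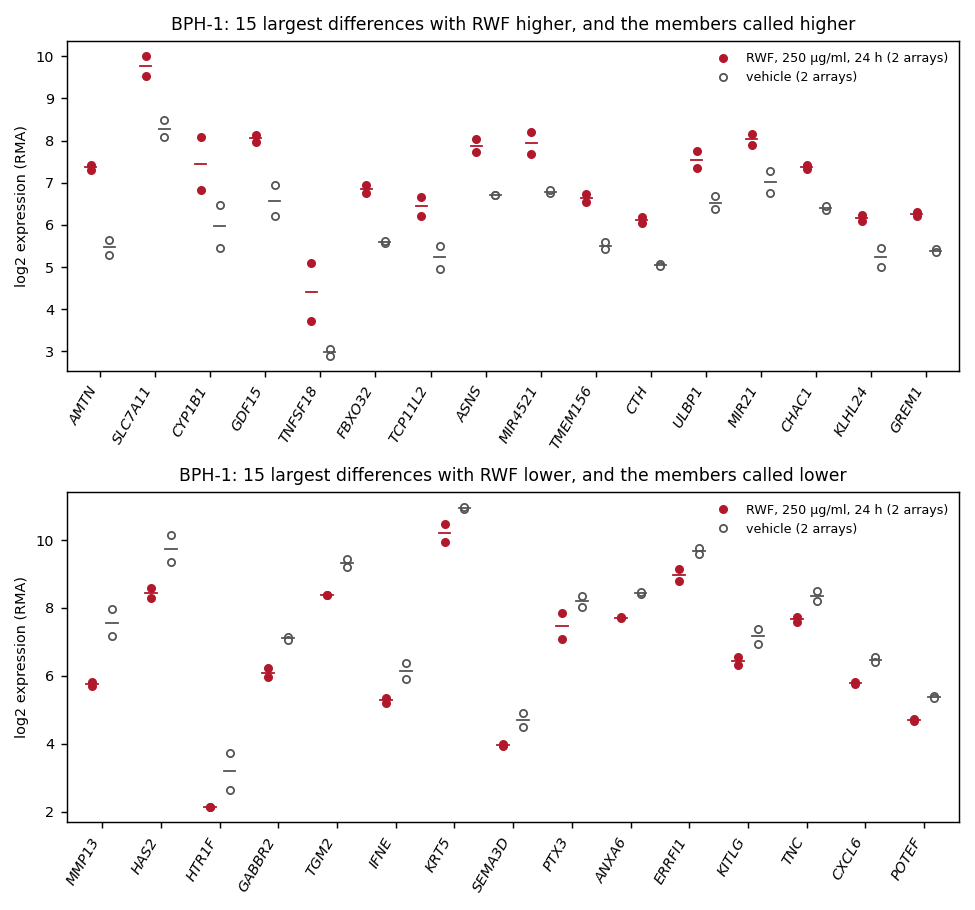
Log2 expression of the 15 members with the largest differences in each direction (unadjusted p under 0.05 and non-overlapping arrays), with any called member not among them. Filled red points are RWF arrays and open grey points vehicle arrays of BPH-1, with group means as bars, and AMTN (7.42 and 7.31 against 5.30 and 5.63) and MMP13 (5.81 and 5.70 against 7.97 and 7.16) show the widest gaps.

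Several secreted and surface proteins were among the 15 largest differences upward. AMTN, the largest of all, amelotin, a secreted protein of the junction between gum and tooth, was at 7.42 and 7.31 with RWF and 5.30 and 5.63 with vehicle, a difference of 1.90 (3.73-fold, limma adjusted p = 0.0825). GDF15, a stress-induced cytokine of the TGF-beta family, was at 7.97 and 8.14 with RWF and 6.22 and 6.94 with vehicle (1.48, adjusted p = 0.0825). The microRNA gene MIR3189, which lies within GDF15, had 0.66. ULBP1, a ligand of the natural killer cell receptor NKG2D, had 7.34 and 7.75 against 6.38 and 6.68 (1.02), while the other 7 measured NKG2D ligands lay between -0.35 for ULBP3 and 0.13 for RAET1E. TNFSF18, a ligand of the TNF family, differed by 1.42, but its arrays were at 3.71 and 5.09 with RWF and 2.89 and 3.07 with vehicle, near background, and the 2 RWF arrays were far apart (0.73 without RWF replicate 2).

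Enzymes and carriers of amino acid metabolism were also among the largest differences. SLC7A11, which imports cystine in exchange for glutamate, was at 10.01 and 9.53 with RWF and 8.49 and 8.08 with vehicle (1.49, limma adjusted p = 0.430). ASNS, which makes asparagine, had 7.73 and 8.03 against 6.70 and 6.70 (1.18), and CTH, which makes cysteine from cystathionine, had 6.05 and 6.19 against 5.07 and 5.03 (1.07). CHAC1, which breaks down glutathione, had 7.32 and 7.42 with RWF and 6.34 and 6.44 with vehicle (0.98). Vehicle arrays of ASNS and CTH agreed to within 0.05 and lay below both RWF arrays. Of 394 solute carrier genes 12 were higher by the 1.3-fold rule and 2 lower, and the higher ones include the amino acid carriers SLC7A5 (0.38) and SLC38A2 (0.47), named after their values were seen. Of 19 measured cytosolic aminoacyl-tRNA synthetase genes, which load tRNAs and were chosen after their values were seen, 5 were higher by the rule and none lower, with a median of 0.18. AARS1, for alanine, differed by 0.63 and MARS1, for methionine, by 0.57, whereas VARS1, for valine, had -0.37. No carrier, synthetase or enzyme named here had an adjusted p under 0.05.

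Other genes near the top were CYP1B1, TCP11L2 and KLHL24. CYP1B1, which oxidises oestrogens and polycyclic hydrocarbons, was at 6.82 and 8.09 with RWF and 5.45 and 6.48 with vehicle, so that the lower RWF array was only slightly above the higher vehicle array. Its difference of 1.49 came to 0.86 without RWF replicate 2 and 0.97 without vehicle replicate 1. TCP11L2, a protein of uncertain role, had 6.22 and 6.67 against 4.96 and 5.50 (1.22), and KLHL24, an adaptor of a ubiquitin ligase that acts on keratin 14 in skin, had 6.10 and 6.23 against 5.00 and 5.46 (0.94, limma adjusted p = 0.0986). Genes called when the members were fitted alone but not over all clusters, and named after their values were seen, include CLTRN (collectrin, a partner of amino acid carriers) with 0.88, CLIC4 (an intracellular chloride channel protein) with 0.79, ABCA12 (the lipid carrier of skin barrier granules) with 0.65 and RDH10 (which starts retinoic acid synthesis) with 0.60.

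The microRNA genes MIR21 and MIR4521 were among the 15 largest differences upward and MIR31 was lower with its host transcript. Their mature products are printed to show that the seeds, bases 2 to 8 that pair with targets and stand in capitals, are unlike (RefSeq, GRCh38.p14). The clusters read RNA of the microRNA gene, not the mature product.
hsa-miR-21-5p: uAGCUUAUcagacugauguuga
hsa-miR-4521: gCUAAGGAaguccugugcucag
hsa-miR-31-5p: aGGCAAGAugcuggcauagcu
These lie at chr17:59841273-59841294 and chr17:8186948-8186969 on the plus strand and chr9:21512158-21512178 on the minus strand, and no seed is shared. MIR21, whose product is abundant in growing epithelium, was at 7.90 and 8.16 with RWF and 6.75 and 7.28 with vehicle (1.02, limma adjusted p = 0.312). MIR4521 was at 8.20 and 7.68 with RWF and 6.76 and 6.83 with vehicle (1.15), so all RWF arrays of both lay above the vehicle arrays. MIR31, named after its values were seen, was at 4.46 and 4.01 against 4.80 and 4.73 (-0.53), and its host transcript MIR31HG at 6.45 and 6.54 against 7.17 and 6.91 (-0.54), both lower with RWF. Across 1056 microRNA genes 7 were higher and 8 lower by the 1.3-fold rule, and the median was -0.024. Small nucleolar RNAs (1 higher and 2 lower of 258), LINC RNAs (4 and 1 of 542) and antisense RNAs (5 and 1 of 770) had their few as well.

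The largest differences downward included genes of the pericellular matrix. MMP13, collagenase 3, was at 5.81 and 5.70 in RWF-treated cells and 7.97 and 7.16 in vehicle-treated cells, a difference of -1.81 (3.51-fold lower, SE 0.22) that missed the threshold (limma adjusted p = 0.0507). HAS2, which makes hyaluronan, was at 8.58 and 8.28 with RWF and 10.14 and 9.35 with vehicle (-1.31, adjusted p = 0.271). TGM2, the tissue transglutaminase that crosslinks matrix proteins, was at 8.39 and 8.38 with RWF and 9.43 and 9.20 with vehicle (-0.93, adjusted p = 0.0825), with both RWF arrays nearly equal. TNC, the matrix glycoprotein tenascin C, had 7.59 and 7.74 against 8.50 and 8.22 (-0.69). PTX3, a secreted pentraxin that binds the hyaluronan matrix, had 7.84 and 7.09 against 8.36 and 8.03 (-0.73), and its 2 RWF arrays were farther apart than its vehicle arrays (-0.35 without RWF replicate 2).

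Of 30 measured matrix metalloproteinases, ADAMTS proteases, plasminogen activators and inhibitors, none was higher and 4 were lower by the 1.3-fold rule, and the median was -0.048 (-0.015 without vehicle replicate 2 and -0.082 without RWF replicate 2). Beside MMP13 these were the ADAMTS proteases ADAMTS1 (-0.54) and ADAMTS9 (-0.41), which cut proteoglycans, and the membrane-bound MMP16 (-0.51). The stromelysin MMP3 and the collagenase MMP1 had 0.067 and -0.16, and the gelatinases MMP2 and MMP9 had 0.13 and -0.065, so MMP13 stood apart from the other secreted collagenases and gelatinases in size. Among integrins and laminins, LAMA4, a laminin chain, was higher (0.62, 5.85 and 6.39 with RWF against 5.25 and 5.75 with vehicle), ITGA2, a collagen receptor, had 0.36, and LAMC1, a chain of most laminins, had -0.26. These differences moved with single arrays, to 0.35 for LAMA4 without RWF replicate 2 and 0.37 without vehicle replicate 1, and, without RWF replicate 1, 0.19 for ITGA2 and -0.17 for LAMC1.

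Signalling genes also had large values downward. ERRFI1, a feedback inhibitor of the EGF receptor, was at 9.13 and 8.79 with RWF and 9.78 and 9.59 with vehicle (-0.72, limma adjusted p = 0.181). Of 15 EGF family genes 1 was higher and 1 lower by the 1.3-fold rule, and the ligands went both ways, with betacellulin (BTC) at 0.40 and the heparin-binding ligand HBEGF at -0.35. BTC was at 4.64 and 4.99 with RWF and 4.37 and 4.46 with vehicle, and its difference was 0.23 without RWF replicate 2. KITLG, the ligand of the KIT receptor, had 6.33 and 6.57 against 7.39 and 6.95 (-0.72). SEMA3D, a guidance factor, had -0.74, and ANXA6, an annexin that binds membranes with calcium, had 7.72 and 7.70 against 8.40 and 8.47 (-0.72, adjusted p = 0.0900), while the other 22 annexin and S100 genes lay between -0.15 and 0.34. HTR1F, a serotonin receptor, had -1.06 at a level near background (2.13 and 2.12 with RWF, 3.74 and 2.63 with vehicle), which was -0.50 without vehicle replicate 1 and -1.61 without vehicle replicate 2. Of 36 immediate early genes and ERK feedback genes, SPRY2, a brake on receptor kinases, was the 1 past the rule (0.44), and the median was 0.085 (0.048 without RWF replicate 2 and 0.15 without vehicle replicate 2).

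KRT5, the basal keratin used as a marker of this line, was lower by the 1.3-fold rule. It was at 9.94 and 10.46 in RWF-treated cells and 10.92 and 10.97 in vehicle-treated cells (-0.75, SE 0.16, limma adjusted p = 0.271), with the 2 vehicle arrays close together and the 2 RWF arrays apart (-0.49 without RWF replicate 1). Its basal partner KRT14 had -0.26, the luminal keratins KRT8 and KRT18 had -0.23 and -0.15, and CDH1 and EPCAM had 0.21 and 0.25, with both RWF arrays of each above both vehicle arrays. KRT5 was the only one of 21 epithelial markers past the 1.3-fold rule, and the median of the list was 0.11 (0.038 without vehicle replicate 1). Among 51 keratin genes, KRT80, of stratified epithelium, was higher (7.78 and 8.15 with RWF against 7.26 and 7.24 with vehicle, 0.72), and KRT6C was lower (-0.64) beside KRT5. KRT6C has near-identical paralogs, so it is uncertain. Of 21 stromal markers VIM, the mesenchymal filament protein, was lower (9.08 and 8.82 against 9.45 and 9.37, -0.47), and the median of that list was 5.50 and 5.43 on the RWF arrays and 5.48 and 5.51 on the vehicle arrays. Of 32 squamous differentiation genes TGM2 alone passed the rule, with involucrin (IVL) at -0.10, and of 29 junction genes the cadherin CDH11 alone (-0.41).

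Of 30 measured interferon-stimulated genes, which cells switch on against viruses, 7 were higher by the 1.3-fold rule and none lower, 26 had a difference above 0, and the median was 0.18 against -0.00336 over all members. The median was 0.071 without vehicle replicate 1 and 0.14 to 0.23 without any of the other arrays in turn. OASL, an oligoadenylate synthetase-like antiviral protein, was at 7.52 and 7.18 in RWF-treated cells and 6.66 and 6.69 in vehicle-treated cells (0.68, limma adjusted p = 0.144). DDX60, a helicase that aids RNA sensing, was at 5.88 and 6.01 with RWF and 5.35 and 5.40 with vehicle (0.57), and IFIT3, which binds viral RNA with its relatives, at 7.52 and 7.34 against 7.08 and 6.76 (0.51). In OASL and DDX60 the gap between the groups was wider than that within either group, while in IFIT3 it was narrower than the gap between the vehicle arrays. IFIT2, PARP14, RSAD2 and IFI44L had 0.62, 0.45, 0.43 and 0.40, of which RSAD2 lay below 4.57 on all 4 arrays, near background, and HERC5, the ISG15 ligase, which is not on the list and was named after its value was seen, had 0.77. The classical members MX1, ISG15 and IFIT1 had 0.12, 0.087 and 0.054. No gene of the list had an adjusted p under 0.05. IFNE, an epithelial type I interferon, went the other way, at 5.21 and 5.36 against 6.38 and 5.90 (-0.86).

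Promoters of 3 of these genes are shown because they hold the core of the interferon-stimulated response element (GAAA, any 2 bases, GAAA), searched on both strands. Each line gives the 150 bases directly before the RefSeq start (GRCh38.p14) on the gene's strand, with the core in capitals.
IFI44L: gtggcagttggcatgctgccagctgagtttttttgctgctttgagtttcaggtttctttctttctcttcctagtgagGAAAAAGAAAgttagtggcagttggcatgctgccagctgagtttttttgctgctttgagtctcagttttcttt
PARP14: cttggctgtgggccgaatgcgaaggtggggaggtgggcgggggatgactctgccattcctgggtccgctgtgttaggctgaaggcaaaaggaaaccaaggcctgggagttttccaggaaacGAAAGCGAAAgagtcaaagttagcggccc
DDX60: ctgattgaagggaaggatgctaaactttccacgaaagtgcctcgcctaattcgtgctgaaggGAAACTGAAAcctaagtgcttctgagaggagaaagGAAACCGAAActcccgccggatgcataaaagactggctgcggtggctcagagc
The windows are chr1:78620298-78620447 (plus), chr3:122680689-122680838 (plus) and chr4:168318753-168318902 (minus). The core ends 63 bases before the start in IFI44L, 19 in PARP14 and 78 and 43 in DDX60. Among interferon-stimulated genes with 1 promoter window of 300 bases, 12 of 16 hold the core, and 3.81% of 22114 such windows of all genes do, a motif chosen after the values were seen. The holders include IFIT1, IFIT5, ISG15 and OAS3, whose differences were 0.054, -0.10, 0.087 and -0.072, so the letters also stood before genes with values near 0.

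Of 33 measured chemokines, cytokines and other NF-kB targets, 1 was higher and 5 were lower by the 1.3-fold rule, 14 had both RWF arrays below both vehicle arrays, and the median was -0.11. It came to -0.041 without RWF replicate 1 and -0.028 without vehicle replicate 2. CXCL6, a neutrophil attractant, was at 5.82 and 5.76 in RWF-treated cells and 6.55 and 6.41 in vehicle-treated cells (-0.69, limma adjusted p = 0.101). CXCL1, of the same kind, was at 9.13 and 9.17 with RWF and 9.95 and 9.67 with vehicle (-0.66, adjusted p = 0.118), and CXCL8, interleukin 8, at 7.75 and 7.92 against 8.39 and 8.30 (-0.51). All RWF arrays of these 3 lay below all vehicle arrays. CXCL5 and TNFAIP3, the A20 feedback inhibitor, had -0.43 and -0.59, and CCL20, TNF and NFKBIA, none of them past the rule, had -0.45, -0.34 and -0.33. The exception was IL1A, the epithelial alarm cytokine, at 8.82 and 9.32 against 8.31 and 8.69 (0.57), while IL1B and IL6 had -0.069 and 0.15.

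Of the chemokine genes that lie near each other on chromosome 4, CXCL6, CXCL1, CXCL5 and CXCL3 carry the same kappa-B letters (GGG, any 2 bases, TTTCC), searched on both strands after the values were seen. Their 150 bases before the start (RefSeq, GRCh38.p14) are shown for that, on each gene's strand and with the match in capitals. CXCL2 holds the letters too and is not printed.
CXCL6: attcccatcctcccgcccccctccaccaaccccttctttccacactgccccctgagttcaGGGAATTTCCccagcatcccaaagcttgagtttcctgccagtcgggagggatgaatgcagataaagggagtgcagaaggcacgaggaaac
CXCL1: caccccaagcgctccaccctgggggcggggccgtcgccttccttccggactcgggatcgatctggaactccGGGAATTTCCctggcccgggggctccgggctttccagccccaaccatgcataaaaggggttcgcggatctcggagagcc
CXCL5: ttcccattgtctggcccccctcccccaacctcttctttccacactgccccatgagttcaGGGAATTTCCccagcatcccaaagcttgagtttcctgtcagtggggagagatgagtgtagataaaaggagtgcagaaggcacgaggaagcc
CXCL3: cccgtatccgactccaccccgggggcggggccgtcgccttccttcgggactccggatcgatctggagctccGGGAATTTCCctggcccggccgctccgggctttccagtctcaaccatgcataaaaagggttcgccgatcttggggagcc
The windows are chr4:73836528-73836677 (plus), chr4:73869243-73869392 (plus), chr4:73998678-73998827 (minus) and chr4:74038690-74038839 (minus). The match ends 80, 69, 81 and 69 bases before the start, in that order. Of 18 measured genes of the list with 1 window of 300 bases, 9 hold these letters, against 1.93% of 22114 windows, and of the 5 lower genes with such a window 4 do, CXCL8 being the one without. CXCL3 itself had -0.31, and CXCL2 and IL6, which also hold the letters, had -0.16 and 0.15.

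**Figure D2:**
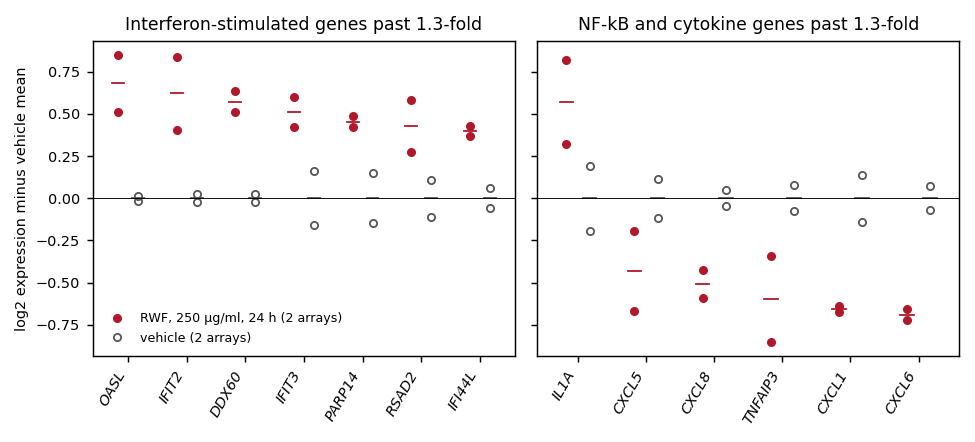
Log2 expression minus the mean of the vehicle arrays for the interferon-stimulated genes (left) and the chemokine, cytokine and NF-kB genes (right) that passed the 1.3-fold rule in BPH-1. Filled red points are the 2 RWF arrays and open grey points the 2 vehicle arrays, with group means as bars, and all 7 interferon-stimulated genes lie above the line and 5 of the 6 others below it.

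Of 28 measured NRF2 targets, which detoxify and restore thiols, 8 were higher by the 1.3-fold rule and none lower, and the median was 0.17. The 8 include SLC7A11 (1.49), described above among the genes of amino acid metabolism. AKR1C1, an aldo-keto reductase that inactivates progesterone, was at 5.96 and 5.81 in RWF-treated cells and 5.10 and 5.23 in vehicle-treated cells (0.72, limma adjusted p = 0.0593). Its relatives AKR1C2 and AKR1C3 had 0.78 and 0.52, and the 3 may share probes, so the split between them is uncertain. NQO1, a quinone reductase, was at 10.05 and 10.02 against 9.47 and 9.43 (0.58), and FTL, the ferritin light chain, at 11.36 and 11.37 against 10.80 and 10.87 (0.53), with gaps between groups wider than those within. TXNRD1 and UGDH, for thioredoxin reduction and UDP-glucuronate, had 0.40 and 0.45. The textbook targets HMOX1, GCLM and GSR had 0.049, 0.083 and -0.038. The antioxidant response element core TGACNNNGC (both strands) was in 5 of 18 list promoters with 1 window (GCLM, PGD, ME1, PIR and CBR1), against 13.5% of all, and in none of the 5 of these that passed the rule.

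Steroid and conjugation enzymes went both ways. HSD17B2, which inactivates oestradiol and testosterone, was at 7.52 and 7.74 with RWF and 6.40 and 7.18 with vehicle (0.84), with vehicle arrays far apart (0.45 without vehicle replicate 1). UGT2B7, which conjugates steroids with glucuronate, was lower at 3.72 and 3.76 against 4.41 and 4.28 (-0.60, limma adjusted p = 0.0825), and SULT1E1, the oestrogen sulfotransferase, had 0.42 (0.25 without RWF replicate 2), both at levels near background. The androgen-regulated genes KLK3, KLK2 and TMPRSS2 had 0.031, -0.056 and 0.15, none past the rule. Of 9 AHR targets, CYP1B1 and NQO1 were higher by the rule, while TIPARP had 0.29 (0.19 without vehicle replicate 1) and CYP1A1, the classical target, 0.22.

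Of 30 measured genes of the FOXO and starvation response, FBXO32 included, 7 were higher by the 1.3-fold rule and 1 lower, 25 had a difference above 0, and the median was 0.16. It came to 0.083 without RWF replicate 2 and 0.089 without vehicle replicate 1. IRS2, the insulin receptor substrate that FOXO factors induce, was at 5.72 and 5.79 in RWF-treated cells and 5.21 and 5.20 in vehicle-treated cells (0.55, limma adjusted p = 0.101). TP53INP1, which acts in autophagy and with p53, was at 5.33 and 5.57 with RWF and 4.50 and 5.01 with vehicle (0.70, and 0.44 without vehicle replicate 1). CREBRF, RRAGD and YPEL5 had 0.59, 0.44 and 0.44, and FOXO1, FOXO3 and the insulin receptor INSR had 0.31, 0.21 and 0.31. TXNIP, which limits glucose uptake, and PDK4, which spares pyruvate, had -0.13 and 0.064, and the mitophagy receptor BNIP3 was the lower one (-0.40). The forkhead letters TGTTTAC (both strands) were in 3 of 18 list promoters with 1 window, against 3.5% of all, and in none of those past the rule. Of 17 insulin-like growth factor genes IRS2 and the binding protein IGFBP7 (0.38) were higher by the rule. STC1, a secreted glycoprotein that restrains the growth factor protease PAPPA, was lower by it (4.09 and 4.17 against 4.69 and 4.82, -0.63), and PAPPA had -0.38.

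Of 20 measured clock genes 3 passed the rule. NR1D2, the repressor REV-ERB beta, was at 7.51 and 7.62 with RWF and 6.81 and 6.84 with vehicle (0.74, SE 0.089, limma adjusted p = 0.0507), with both groups tight and apart. NPAS2, a partner of BMAL1 in the clock, was at 6.61 and 6.47 against 7.06 and 7.02 (-0.50). BHLHE40, another clock repressor, was at 7.91 and 7.24 with RWF and 7.02 and 7.18 with vehicle, so its difference of 0.47 rested on RWF replicate 1 (0.14 without it). The period genes PER1, PER2 and PER3 had 0.025, -0.13 and -0.056, and NR1D1, the closest relative of NR1D2, had 0.13.

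Genes of cholesterol synthesis and uptake had the highest median of all lists on the 4 arrays, 0.43, and most of it lay on 1 array, since leaving out RWF replicate 1 gave 0.12, below the FOXO and NRF2 lists (0.19 each), and leaving out RWF replicate 2 gave 0.85. The list medians were 8.21 and 7.35 on the RWF arrays and 7.29 and 7.30 on the vehicle arrays. Of 20 measured, 19 had a difference above 0 and 7 were higher by the 1.3-fold rule, and none had an adjusted p under 0.05. RWF replicate 1 lay above both vehicle arrays in 19 of the 20 genes and RWF replicate 2 in 10, and replicate 1 lay above replicate 2 in 18. HMGCS1, which commits acetyl groups to sterols, was at 9.19 and 7.27 on the RWF arrays and 7.42 and 7.11 on the vehicle arrays, so the second RWF array lay within the vehicle range despite a difference of 0.96. INSIG1, a sterol sensor, was likewise at 8.69 and 6.86 against 6.91 and 6.71. STARD4, a sterol carrier, was at 7.79 and 6.98 against 6.70 and 6.58 (0.74, and 0.34 without RWF replicate 1), with both RWF arrays above. Both RWF arrays also lay above in CYP51A1 (9.84 and 8.98 against 8.85 and 8.45) and ACAT2 (9.95 and 9.03 against 8.92 and 8.64). Their differences of 0.76 and 0.71 came to 0.32 and 0.25 without RWF replicate 1. SCD, the desaturase of fatty acid synthesis, showed the same order, at 11.07 and 10.28 against 10.25 and 9.88 (0.61, and 0.21 without RWF replicate 1). The sterol response element letters TCACNCCAC (both strands) were in 1 of 14 list promoters with 1 window (SREBF2), against 1.16% of all. In phospholipid synthesis CHKA, choline kinase alpha, did not share this split, at 8.34 and 8.35 with RWF and 7.69 and 7.71 with vehicle (0.64, limma adjusted p = 0.0704).

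**Figure D3:**
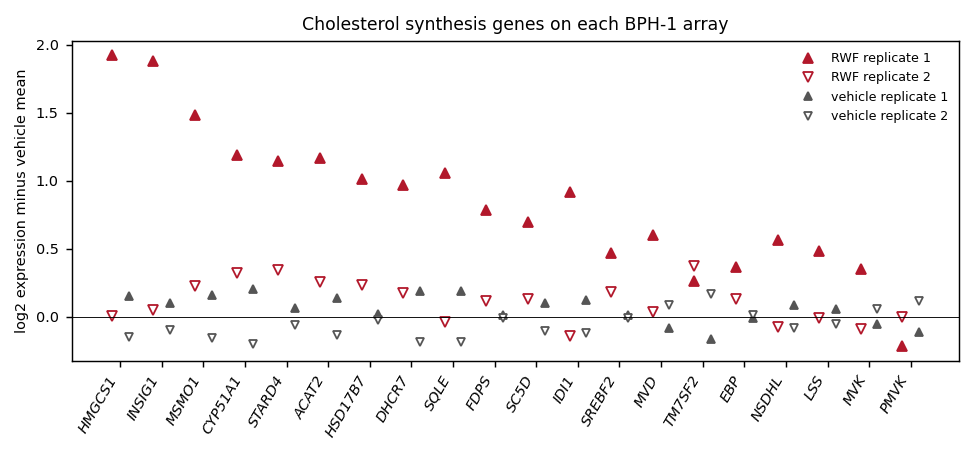
Log2 expression minus the mean of the vehicle arrays for the 20 measured genes of cholesterol synthesis and uptake, ordered by the difference of means. Upward triangles are replicate 1 and open downward triangles replicate 2 of RWF (red) and vehicle (grey), and RWF replicate 1 lies above RWF replicate 2 in 18 of the 20 genes.

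Growth and energy supply genes had small negative medians. Ribosome biogenesis genes had a median of -0.14 with 2 of 30 above 0, proteasome subunits -0.15 with 4 of 36, nuclear-encoded respiratory chain genes -0.08 with 6 of 41, and mitochondrial ribosomal proteins -0.065 with 12 of 77, against 48.3% of all members above 0. Without vehicle replicate 1 these medians were -0.015 for ribosome biogenesis, -0.097 for the proteasome, -0.057 for the respiratory chain and -0.041 for mitochondrial ribosomal proteins, and without RWF replicate 2 the proteasome median was -0.091. None of these had a member past the 1.3-fold rule, and BOP1, of the pre-ribosome, at 7.43 and 7.40 against 7.79 and 7.71 (-0.34), and ATP5MC1, of ATP synthase, with -0.26, were among those with the smallest p. Both RWF arrays lay below both vehicle arrays in 19 of 36 proteasome genes and 22 of 41 respiratory genes, against 18.6% of all members. Hypoxia and glycolysis genes had a median of -0.12, with 22 of 34 in that position (median -0.064 without vehicle replicate 2), led by PFKFB3, which drives glycolysis (7.99 and 7.97 against 8.46 and 8.43, -0.47), whereas STC2, a secreted relative of STC1, was higher (0.53). Of 39 G2/M genes 3 were above 0 and none passed the rule (median -0.075, and 0.024 without RWF replicate 2), with CDC20, an activator of mitotic exit, at -0.28. The 44 G1/S genes had a median of -0.0099, with cyclin E1 (CCNE1) at 0.33 and the replication factor GINS2 at -0.30.

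Of 31 cell death genes 1 was higher and 1 lower by the rule. PMAIP1, the BH3-only protein NOXA, was at 8.19 and 8.09 with RWF and 7.62 and 7.46 with vehicle (0.60, limma adjusted p = 0.142), and BCL2A1, an anti-apoptotic relative of BCL2, was the lower one, near background (-0.55). Of 24 p53 targets TP53INP1 and the stress sensor SESN2 (0.40) were higher, with CDKN1A, the p21 inhibitor of the cell cycle, at 0.10. Heat shock genes had a median of -0.10 (-0.025 without vehicle replicate 1) with none past the rule. Metallothioneins and zinc response genes had 0.039 (-0.0027 without RWF replicate 2), with MT1E at 0.36. The zinc importer SLC39A10 was at 7.03 and 7.34 with RWF and 7.54 and 7.97 with vehicle (-0.57, and -0.35 without vehicle replicate 2). Of 35 TGF-beta and BMP genes 4 were higher and none lower by the rule, GREM1, GDF15, the inhibitor of differentiation ID4 (0.52) and the SMAD repressor SKIL (0.39), while FST, an activin antagonist whose arrays overlapped, had -0.43. The 34 Wnt genes had none past the rule.

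**Figure D4:**
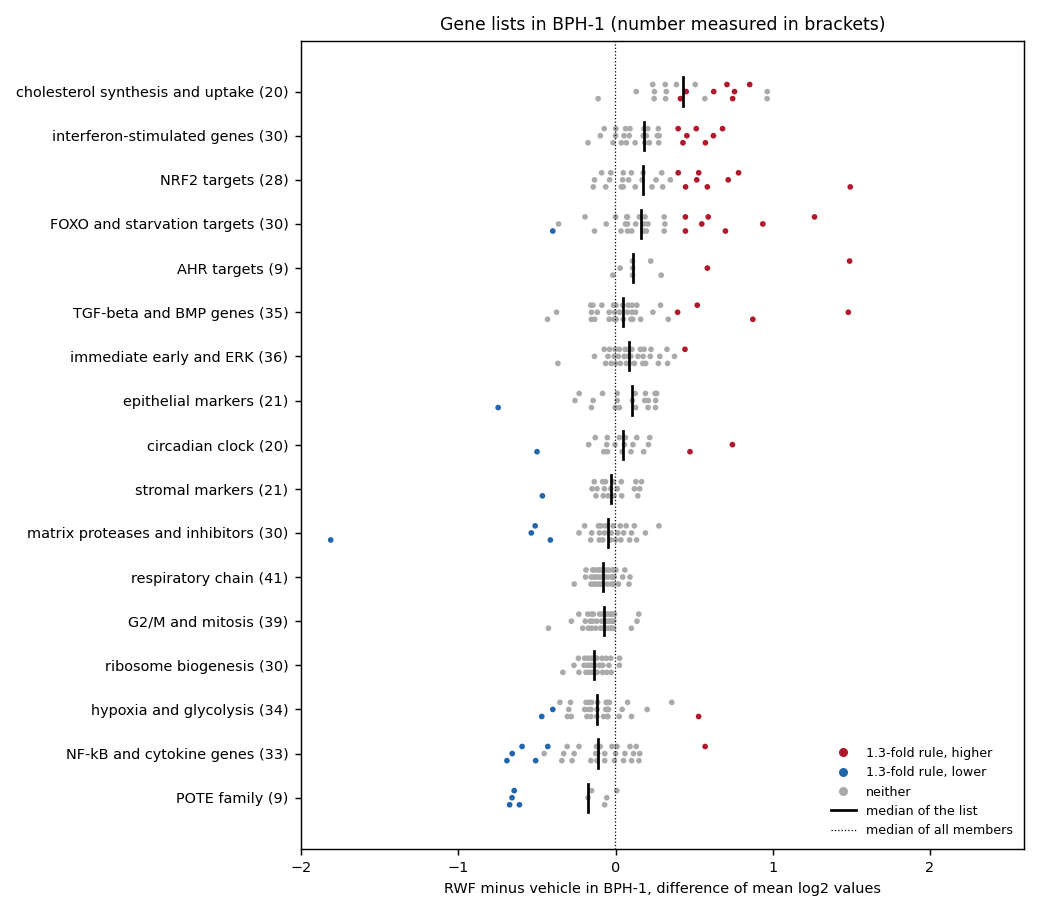
Difference of mean log2 values (RWF minus vehicle) in BPH-1 for every measured member of 17 gene lists, with the number measured in brackets. Red and blue points passed the 1.3-fold rule upward and downward, black bars are list medians and the dotted line is the median of all members (-0.00336), and the medians run between 0.43 for the cholesterol list and -0.18 for the POTE family, an order that changed at both ends when RWF replicate 1 was left out.

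Whether a response differed from that of WPMY-1 cells was tested as an interaction in the same fit. It was called in 2 members, 0.0089% of all, and in both the larger difference was in WPMY-1. CXADR, a junction protein and virus receptor, was at 8.18 and 8.02 with RWF and 8.31 and 8.10 with vehicle in BPH-1 (-0.11), and at 7.10 and 7.08 against 5.69 and 5.70 in WPMY-1 (1.40, limma interaction adjusted p = 0.0455). LY96, the co-receptor of TLR4, was at 1.99 and 2.10 against 1.89 and 1.98 in BPH-1, near background, and at 5.32 and 5.30 against 3.82 and 3.65 in WPMY-1 (0.11 and 1.57, adjusted p = 0.0455). Of the BPH-1 calls, FBXO32, TMEM156 and GREM1 had 0.64, 0.36 and 0.53 in WPMY-1, and GABBR2 and POTEF had 0.22 and 0.22 (interaction adjusted p = 0.0991 for POTEF). By the 1.3-fold rule 622 members were higher in WPMY-1 (2.77% of all) and 880 lower (3.92%). The 243 higher in BPH-1 shared 113 genes with them, which is 46.5% of the BPH-1 genes and 18.2% of the WPMY-1 genes, and the 114 lower shared 38, which is 33.3% and 4.32%.

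By the same rule 10 genes lay on opposite sides in the lines, 7 of the 243 higher and 3 of the 114 lower in BPH-1. Over all members 3.92% were lower and 2.77% higher in WPMY-1, so these counts were not above the shares over all members. The 10 genes were named after their values were seen, and none had an adjusted interaction p under 0.05. They include the matrix proteins of the CCN family CCN1 and CCN2, the actin-binding tropomyosin TPM1 and the sarcomere-type protein MYPN. MYPN was at 5.68 and 5.99 with RWF and 4.83 and 5.22 with vehicle in BPH-1 (0.81), and at 5.68 and 5.73 against 6.44 and 6.47 in WPMY-1 (-0.75, limma interaction adjusted p = 0.109). TPM1 had 0.54 in BPH-1 and -0.91 in WPMY-1 (adjusted p = 0.109), CCN2 0.71 and -0.79, and CCN1 0.64 and -0.56 (adjusted p = 0.254). GBP1, an interferon-induced GTPase, had 0.41 and -1.18, MIR21 1.02 and -0.65, and EDIL3, a matrix protein, 0.65 and -0.40. Lower in BPH-1 and higher in WPMY-1 were STC1 (-0.63 and 0.57), the neurofilament gene NEFL (-0.50 and 0.51) and SQOR, the sulfide oxidising enzyme (-0.48 and 0.53). STC1 came nearest to a called difference (adjusted p = 0.0776).

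**Figure D5:**
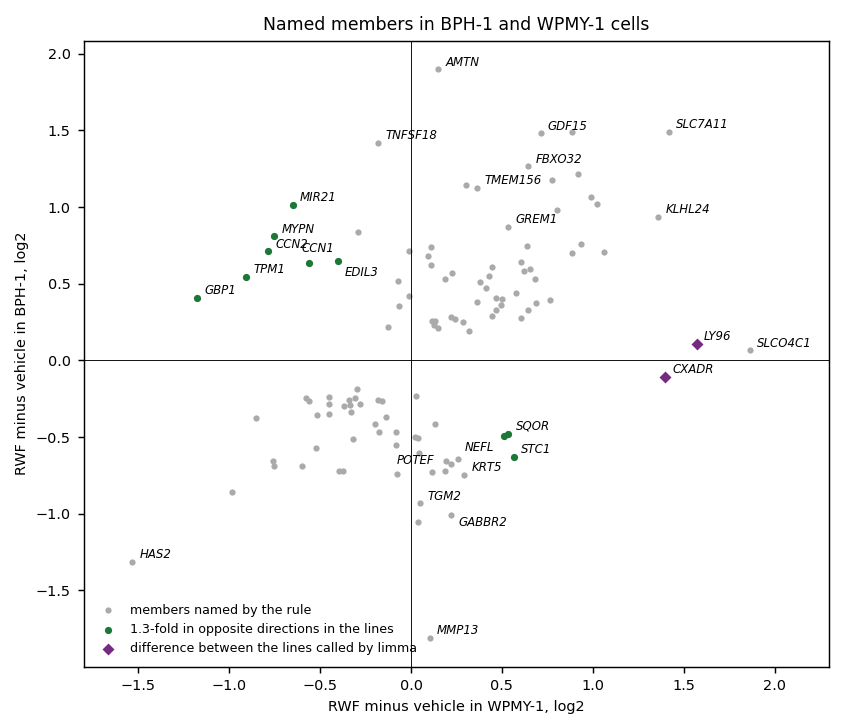
RWF minus vehicle on the log2 scale in BPH-1 (vertical) and WPMY-1 (horizontal) for the members named by the rule and for the genes on opposite sides in the lines. Green points passed the 1.3-fold rule in opposite directions, purple diamonds are CXADR (-0.11 and 1.40) and LY96 (0.11 and 1.57), called as different between the lines, and grey points are the other named members.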

How the data were processed

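BPH-1 and WPMY-1 RNA was read on 8 Affymetrix Human Transcriptome Array 2.0 chips. The values are log2 expression as deposited by the authors, 1 value for each transcript cluster on each array, made with RMA (background correction, normalization between arrays and summary of probes) per the submitters' processing notes, version not given in the sources used here. RMA can remove a shift shared by all genes, and the table holds no detection calls. With 2 arrays a group, their number sets the precision. All 8 sample columns were mapped and values were used as deposited. Gene symbols came from the platform annotation and were checked against RefSeq. The 4 groups were fitted with limma 3.58.1 (R 4.3.3) over all clusters, with 4 residual and 4.34 prior degrees of freedom and Benjamini-Hochberg adjustment at 0.05, after the script was tested on simulated data. Line and interaction contrasts used the same fit. Figures were drawn with matplotlib 3.10.9.

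The members, 39 gene lists and 12 families were chosen with earlier results of these data known. The naming rule took every called member and the 15 largest differences each way at an unadjusted p under 0.05 with non-overlapping arrays. It also took up to 3 per list by p, KRT5, CDH1, EPCAM and the 5 smallest interaction p. The text gives only some of these 108 genes, chosen with their values known. Other members describe a list or were chosen after their values were seen. Alternatives were quantile normalization, median centring, a filter on dim clusters, a fit of BPH-1 alone, trend and robust variances and a replicate block. Further ones were members fitted alone, the mean of a gene's clusters, other folds, Student's t-test and each array left out. Promoter and microRNA sequences are from RefSeq (GRCh38.p14), where 15247 members had a promoter window and 11439 exactly 1.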

Additional observations from a re-analysis of the deposited data

Results flagged for a closer look

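The RWF response of CXADR differed between the lines. Its RWF minus vehicle difference in BPH-1 was -1.50 relative to that in WPMY-1 on the log2 scale (limma interaction, SE 0.135, adjusted p = 0.0455). That of LY96 was -1.46 (SE 0.126, adjusted p = 0.0455), with all 4 BPH-1 arrays near background. No member was called as different between the lines after quantile normalization or median centring, or without either BPH-1 RWF array.

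Clusters outside the members also carried signal. Such clusters have no gene symbol, have several, or are the dimmer clusters of a gene. Of 27 clusters called in BPH-1, 22 lie outside the members, 3 of them higher and 19 lower. They were not split by kind. They hold 14 distinct sets of values, since 8 clusters share 1 set and 2 share another. The lower ones had differences of -1.95 to -0.72. Of 22 clusters with the chromosome code 0M in their identifier, 7 were called, 6 lower and 1 higher, and none is a member. Of the 22, 17 had a difference below 0. A 0M cluster had the lowest adjusted p of all clusters (limma, 0.0010). It was at 9.65 and 9.85 with RWF and 11.69 and 11.70 with vehicle (-1.95). The median difference of the 22 clusters with code 0M was -0.78 in BPH-1, against -1.05 in WPMY-1. What these clusters read was not analysed here.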

How the results depend on the processing

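The 5 calls in BPH-1 became 0 after quantile normalization, 3 after median centring, 30 (23 higher, 7 lower) without dim clusters, where 15888 members were tested, and 39 with the members fitted alone. The replicate block gave 12 (8 higher, 4 lower), but same-numbered arrays share only a number (correlation of their deviations 0.125 in BPH-1, -0.026 in WPMY-1). BPH-1 alone gave 5, all higher, and trend and robust variances 6. Student's t-test, which the methods name in general but not for the arrays, gave 1377 unadjusted (715 higher, 662 lower) and 0 after Benjamini-Hochberg. Leaving out 1 array gave 0 to 3 (0 without RWF replicate 2 or vehicle replicate 1 of BPH-1). With quantile normalization, limma gives 0 for the difference between lines, as with median centring, trend and robust variances and the replicate block (2 as reported, and 830 higher and 979 lower at an unadjusted p under 0.05), 25 (11 higher, 14 lower) with the members alone, 2 without dim clusters, and 0 to 4 with 1 array left out. The 243 higher and 114 lower genes of the 1.3-fold rule became 70 and 25 at 1.5-fold and 13 and 4 at 2-fold, and 270 to 405 and 137 to 303 with 1 BPH-1 array left out, where fewer arrays need to be apart. The cause of these shifts was not tested. Of 1715 values of named genes under alternatives, 1602 kept direction and side of the threshold, 64 passed it only there, 48 only in the reported fit and 1 changed sign: SLCO4C1, a transporter gene, had 0.067 as reported and -0.011 without vehicle replicate 1 (-0.011 to 0.14 over arrays left out). The 48 values that lost the threshold all belong to the 5 called genes, as no other of the 108 named genes was called. Most of the 1602 were uncalled genes that stayed uncalled. Of 415 list medians 394 moved less than the replicate spread, and the 21 others came from leaving out a BPH-1 array.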
